A study of Danio rerio with 6 samples.

Results

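The 8 antigen presentation genes mhc2dab, cd74a, cd74b, ciita, nlrc5, b2m, tap1 and tapbp.1 were described in 24 h zebrafish fin regenerates, out of 19822 genes in the deposited table. They were chosen by gene symbol with the values of the table already known, in particular the values of 0 in single libraries, so that their levels are given as a description and their counts support nothing further. All fish were wild-type AB, 3 to 12 months old and of both sexes in equal numbers, and regenerated at 33 °C. One group received intraperitoneal Galloflavin, a lactate dehydrogenase inhibitor, at 0.12 mg per g body weight dissolved in DMSO, and the other received DMSO alone. Each group had 3 libraries, with 1 from every batch (B1 to B3), and every library was a pool of 10 fins that included 1 bony-ray segment of the stump. A pool averages over fish, so values of single animals are not seen, and whether the pools differ in MHC haplotype was not tested.

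Antigen presentation runs along 2 routes. Class I molecules pair a polymorphic heavy chain with beta-2-microglobulin (b2m) and carry peptides that the proteasome makes in the cytosol, the TAP transporter (tap1) pumps into the endoplasmic reticulum and tapasin (tapbp.1) helps to load. Class II molecules pair an alpha with a beta chain (mhc2dab encodes a beta chain), are guarded by the invariant chain (cd74a, cd74b) and are loaded with peptides from lysosomal proteolysis, mostly in macrophages, dendritic cells and B cells. In mammals, CIITA (here ciita) is the master activator of class II genes and NLRC5 (here nlrc5) that of class I genes, and both act through RFX, NF-Y and CREB factors on the promoter. Interferon gamma induces both routes. The MHC genes of zebrafish differ in gene content between haplotypes.

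Depth ran from 17712157 to 29596335 reads assigned to genes per library, and both B3 libraries were the shallowest. Values are normalised counts as deposited, which are not scaled for gene length, so levels are compared between libraries and not between genes. Tests were run on log2(normalised count + 1) across the 15806 genes with a mean of at least 1, and all 8 genes passed this filter. Of the fin markers, the basal keratin gene krt5 was at 51797 to 70772 normalised counts. The blastema genes msx1b and fgf20a were at 48.0 to 71.8 and 24.7 to 63.7. No uninjured fin or other tissue was in the series, so these levels do not test the label. Between Galloflavin and DMSO, 0 of the 8 genes were called by limma at an adjusted p of 0.05, as were 0% of all tested genes (1139 genes at an unadjusted p under 0.05, lowest adjusted p = 0.253). A gene of a list is said to have passed where limma called it, and calls by DESeq2 are named as such. In bulk tissue, fewer cells of a type and less RNA per cell cannot be told apart.

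**Figure D1:**
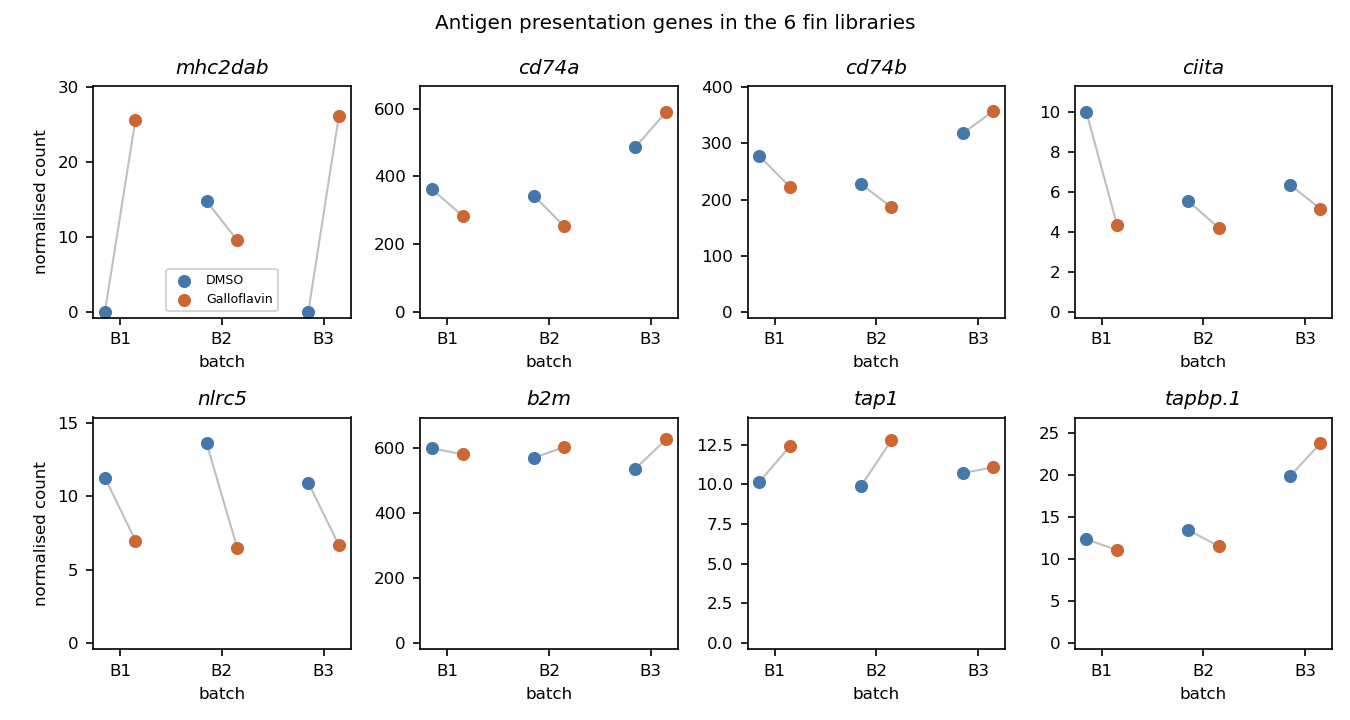
Normalised counts (y axis, from 0) of the 8 genes in batches B1, B2 and B3 (x axis), with each point 1 library of 10 pooled fins and grey lines joining the DMSO and Galloflavin libraries of a batch. The gene mhc2dab was at 0 in DMSO B1 and DMSO B3, nlrc5 and ciita were lower with Galloflavin in every batch, and cd74a, cd74b and tapbp.1 were highest in both B3 libraries.

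The class II beta chain gene mhc2dab (ENSDARG00000079105) was either listed at 0 in a library or present at 244 reads or more. The DMSO libraries B1, B2 and B3 had 0, 14.8 and 0 normalised counts, which are 0, 436 and 0 reads. The Galloflavin libraries B1, B2 and B3 had 25.7, 9.56 and 26.1 normalised counts, which are 665, 244 and 481 reads. The libraries at 0 were thus both DMSO libraries, in different batches, while the remaining DMSO library lay above the Galloflavin library of its own batch, so that the groups overlapped.

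A count of 0 allows up to 3 reads, a normalised count of 0.117 in DMSO B1 and 0.159 in DMSO B3, for counting error only. Against this floor per library, mhc2dab was at least 220.2-fold higher in Galloflavin B1 than in DMSO B1, and at least 164-fold higher in Galloflavin B3 than in DMSO B3. In B2 the log2 difference went the other way, at -0.58. Over all libraries the fitted log2 fold change was 2.97 ± 1.05 (SE, limma adjusted p = 0.644), and it depends on the pseudocount of 1. It was 3.61 with a pseudocount of 0.5 and 1.60 with a pseudocount of 5. With edgeR it was 2.01, and 3.67 with batch as a block. With DESeq2 it was 2.065, and 10.07 with batch as a block (DESeq2 adjusted p = 0.0928). Without batch B2 the value was 4.75 (limma adjusted p = 0.0193), and mhc2dab was then the 1 gene called. That fit leaves out the only DMSO library with mhc2dab reads. As the gene was chosen with its zeros in view, this call supports nothing further. Over the alternatives the adjusted p ran from 0.0193 to 0.999, and DESeq2 without a batch term returned no p for this gene.

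Only 9 of the 15806 tested genes, or 0.0569%, had a library at 0 reads beside another with at least 20, and mhc2dab was 1 of them and the 1 member among them. Its range over the 6 libraries, 4.76 on the log2 scale, was the largest of all tested genes. It also ranked 1 with a pseudocount of 0.5, and 30 with a pseudocount of 5. The next largest ranges, with the pseudocount of 1, were those of ndrg1a (4.59), a hypoxia-responsive gene, and adm2a (4.59), which encodes a peptide of the adrenomedullin family.

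**Figure D2:**
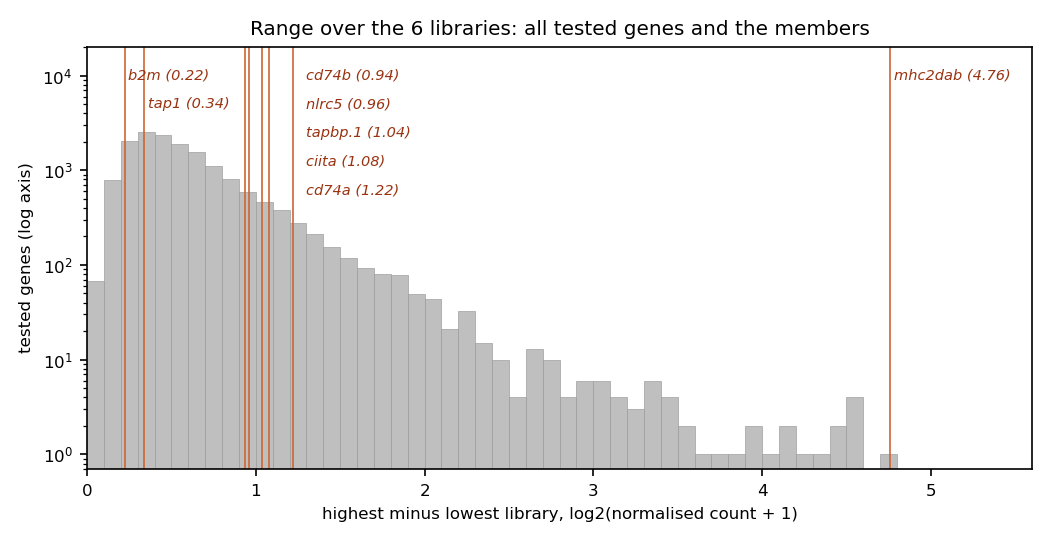
Histogram of the range over the 6 libraries, as the highest minus the lowest log2(normalised count + 1) (x axis), for 15806 tested genes (y axis, log scale), with orange lines at the 8 antigen presentation genes and their values in brackets. The gene mhc2dab lies at the far right at 4.76, b2m and tap1 at the left at 0.22 and 0.34, and the other members between 0.94 and 1.22.

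In the whole table, 8 rows had 0 reads in DMSO B1 and DMSO B3 and in no other library. One of the others was mhc2bl, named as similar to class II beta chains, with 11, 8, 4 and 6 reads in Galloflavin B1, DMSO B2, Galloflavin B2 and Galloflavin B3. Its log2 differences within batches were 0.51, -0.14 and 0.41 in B1, B2 and B3. The signs in B1 and B3 follow from the zeros by which the row was found, and that in B2 rests on 8 against 4 reads. At this depth the count of mhc2bl is too low for a comparison of levels. Besides mhc2dab the highest of these rows was plxnb2a.2, a plexin gene, with at most 41 reads. These rows were found by their zeros after the values were seen.

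Most other class II chains had reads in every library, apart from mhc2bl and from mhc2d8.37b2, which had 0 reads in all DMSO libraries and 3, 2 and 6 with Galloflavin. The 12 rows with an mhc2 symbol, gathered by name after the table was seen, summed to 135, 160 and 234 normalised counts in DMSO B1, B2 and B3 and to 192, 148 and 258 in Galloflavin B1, B2 and B3. Without mhc2dab the sums were 135, 145 and 234 with DMSO and 167, 138 and 232 with Galloflavin, so both libraries without mhc2dab reads still carried class II transcripts. The beta chain gene mhc2dgb had 31.7, 37.6 and 73.5 normalised counts with DMSO and 48.2, 36.0 and 65.1 with Galloflavin. The alpha chain gene mhc2dga had 41.1, 44.4 and 72.3 with DMSO and 58.8, 47.1 and 68.4 with Galloflavin. Class II beta chain genes, like the alpha chain genes, are close paralogs that may share reads, so the split of reads between them is uncertain. Whether reads of the libraries at 0 were assigned to another copy was not tested.

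Both invariant chain genes were highest in the B3 libraries. For cd74a (ENSDARG00000009087) the DMSO libraries B1, B2 and B3 had 362, 343 and 487 normalised counts and the Galloflavin libraries 283, 252 and 589. For cd74b (ENSDARG00000036628) the values were 278, 228 and 318 with DMSO and 223, 186 and 357 with Galloflavin. Both genes were lower with Galloflavin in B1 and B2 and higher in B3, and both B3 libraries lay above the other 4 libraries. Galloflavin minus DMSO came to -0.17 ± 0.32 for cd74a and -0.15 ± 0.24 for cd74b on the log2 scale (SE, limma adjusted p = 0.939 and 0.93). The ratio of cd74a to cd74b was 1.27 to 1.65 in the 6 libraries.

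**Figure D3:**
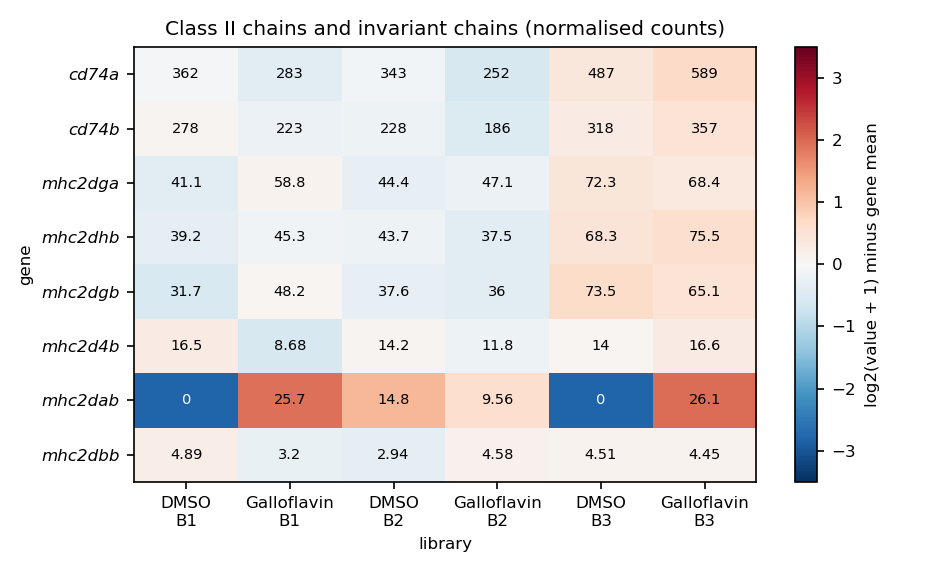
Normalised counts (numbers in the cells) of the invariant chain genes and the mhc2 rows with a mean of at least 1 (y axis) in the 6 libraries (x axis), coloured by log2(value + 1) minus the mean of the gene. Only the row of mhc2dab holds cells at 0, in DMSO B1 and DMSO B3, while cd74a, cd74b, mhc2dga, mhc2dgb and mhc2dhb are highest in both B3 libraries.

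Batch differences were tested with group in the model. The F test of limma called 0 of the 8 genes and 0.0316% of all tested genes. Adjusted p-values were 0.223 for cd74a, 0.233 for cd74b and 0.19 for tapbp.1, and 0.692 to 0.991 for the other 5 members. Both B3 libraries lay above the other 4 for 3 of the 8 members (cd74a, cd74b and tapbp.1), beside 12.0% of all tested genes, and below them for 0 members, beside 16.2%. On the log2 scale the B3 mean was 0.80 above the mean of the other libraries for cd74a, 0.57 for cd74b and 0.80 for tapbp.1. T and NK cell markers were also high in B3. Their summed level was 80.9 to 108 normalised counts in B3 and 60.8 to 79.5 in the other 4 libraries, and 6 of 11 tested markers were above in both B3 libraries, among them the T cell kinase gene itk and the interleukin receptor gene il7r. Summed dendritic cell markers were at 89.2 to 97.9 in B3 and 72.9 to 86.4 elsewhere. Of 5 tested dendritic cell markers, however, 2 were above in both B3 libraries and 1 was below. Macrophage markers were at 482 to 536 in B3 and 477 to 535 elsewhere, with 0 of 13 above in both B3 libraries and 3 below. The part of these cells in the B3 levels was not tested.

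Both transactivator genes were lower with Galloflavin in every batch, without overlap between the groups. For nlrc5 (ENSDARG00000024631) the DMSO libraries B1, B2 and B3 had 11.3, 13.6 and 10.9 normalised counts and the Galloflavin libraries 6.98, 6.50 and 6.67. The DMSO mean was 11.9 ± 1.46 and the Galloflavin mean 6.72 ± 0.243 (SD, n = 3). The log2 fold change was -0.74 ± 0.13 (SE, limma adjusted p = 0.381), and leaving out single libraries gave -0.79 to -0.65. On reads recovered from the table, edgeR did not call nlrc5 (adjusted p = 0.435). DESeq2 called it (adjusted p = 0.00153), as it did 0.547% of the genes it tested. With batch as a block DESeq2 also called it (adjusted p = 0.0419), in a fit that called 146 genes.

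For ciita (ENSDARG00000090851) the values were 9.98, 5.55 and 6.36 normalised counts with DMSO and 4.36, 4.19 and 5.16 with Galloflavin. The means were 7.30 ± 2.36 (SD, n = 3) and 4.57 ± 0.515, and the gap between the groups was small, from 5.16 to 5.55. The log2 fold change was -0.54 ± 0.21 (SE, limma adjusted p = 0.675), with -1.04 in B1, -0.34 in B2 and -0.26 in B3. Without DMSO B1 it was -0.32 (limma adjusted p = 0.999). With these genes, 2 of the 8 members lay below DMSO without overlap, beside 6.47% of all tested genes. In a list of 12 MHC transcription factors these were the members at an unadjusted p under 0.05, and 0 of 12 passed in either direction (median log2 fold change -0.05, against -0.004 over all tested genes). The partner factors were closer to 0, with nfyc at -0.000593 ± 0.10, nfya at -0.10 ± 0.09, creb1a at -0.00879 ± 0.11 and nfyba at 0.00394 ± 0.14. The whole range of partner factors was from -0.16 ± 0.16 for rfxank to 0.26 ± 0.15 for rfxap. Of the partner factors, rfxap and nfybb were higher with Galloflavin in every batch, and nfya was lower in every batch.

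Genes of interferon gamma signalling lay mostly above 0. Of 10 tested genes of this list, 0 passed, and 8 had values above 0 (median log2 fold change 0.11), as did 7761 of all 15806 tested genes. The receptor gene ifngr1 had 17.9, 17.9 and 16.8 normalised counts in DMSO B1, B2 and B3 and 31.2, 21.4 and 22.7 with Galloflavin (0.48 ± 0.15, limma adjusted p = 0.602). The gene socs1a, which encodes an inhibitor of Jak-Stat signalling, had 12.0, 10.5 and 12.6 with DMSO and 18.5, 38.4 and 15.0 with Galloflavin (0.86 ± 0.31, limma adjusted p = 0.653). The groups did not overlap for either gene, as for 6.97% of tested genes with Galloflavin above DMSO. Both genes were picked from the list for this separation and not for a high mean, and their paralogs in the list did not share it. The paralog ifngr1l was higher with Galloflavin in B1 (0.79) and lower in B2 (-0.11) and B3 (-0.43), with a fit of 0.08 ± 0.37. The paralog socs1b, at 12 to 36 reads and below the filter, was lower in B1, B2 and B3 (-0.26, -0.53 and -0.08). The kinase gene jak1 stood at -0.000484 ± 0.10, stat1a at 0.20 ± 0.10, jak2a at 0.20 ± 0.19 and irf1b at -0.05 ± 0.23. The genes ifng1 and ifng1r were on the list, but no row of the table was found under these symbols. Of 15 type I interferon targets, 0 passed (median -0.02), and their levels included 26.3 to 52.4 normalised counts for stat2 and 56.8 to 62.0 for the ubiquitin ligase gene trim25.

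On the class I side, b2m (ENSDARG00000053136) was the steadiest member. With DMSO it had 600, 570 and 537 normalised counts by batch, and with Galloflavin 582, 604 and 627, and the groups overlapped. Its highest library was 1.17 times its lowest, and 92.3% of tested genes had a range at least as large. The log2 fold change was 0.09 ± 0.09 (SE, limma adjusted p = 0.867), or -0.037 after quantile normalization. Of the other class I chain genes, mhc1uba had 734, 889 and 836 normalised counts with DMSO and 653, 637 and 1012 with Galloflavin (-0.12 ± 0.19, limma adjusted p = 0.92). The heavy chain gene mhc1zba stood at 0.18 ± 0.11 and the b2m paralog b2ml at 0.15 ± 0.14. Of 20 tested class I chain genes, 0 passed, 11 were above 0 and 9 below (median 0.02). The class I gene mhc1lla was at 0.118 to 0.386 normalised counts in B1 and B2 and at 2.86 and 3.04 in B3 (limma adjusted p = 0.115 for batch), a gene named after its values were seen.

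The TAP subunit gene tap1 (ENSDARG00000079766) had 10.1, 9.88 and 10.7 normalised counts with DMSO and 12.4, 12.8 and 11.1 with Galloflavin. All Galloflavin libraries lay above all DMSO libraries, as was so for 1 of the 8 members and 6.97% of tested genes. The means were 10.2 ± 0.423 (SD, n = 3) and 12.1 ± 0.891, 0.22 ± 0.11 apart on the log2 scale (SE, limma adjusted p = 0.717). The difference was small in B3, at 0.04. The tapasin gene tapbp.1 (ENSDARG00000079402) had 12.4, 13.5 and 19.8 normalised counts with DMSO and 11.1, 11.5 and 23.8 with Galloflavin, with both B3 libraries the highest. Its log2 fold change was -0.03 ± 0.31 (SE, limma adjusted p = 0.993). It changed sign under several alternatives. In a list of 15 class I peptide loading genes, 0 passed and the median was -0.02. Those with the highest mean counts are general chaperones of the endoplasmic reticulum, with canx at -0.000135 ± 0.15, pdia3 at 0.12 ± 0.23, calr3a at 0.07 ± 0.24 and calr3b at -0.03 ± 0.27.

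The RefSeq gene order of the GRCz12tu assembly, which is not the assembly of the table, was used for neighbours only. By symbol, 7 of the 8 members were matched. The member without a match was mhc2dab, so its neighbours were not examined. In this order tapbp.1 opens a run of class I genes. It is followed by mhc1uka, tapbp.2, mhc1uba, the immunoproteasome subunit genes psmb13a, psmb8a, psmb12 and psmb9a, and the transporter gene tap2a. All 9 genes of this run were lower with Galloflavin than with DMSO in B1 and in B2, and 8 of 9 were higher in B3, with psmb12 at -0.03. Within B2 the log2 differences ran from -0.21 for tapbp.1 to -1.15 for tap2a. Of the nearest neighbours on either side, daxx was at -0.05, 0.07 and 0.12 in B1, B2 and B3, and brd2a at -0.23, -0.15 and -0.02, the signs of psmb12. Farther out, the zinc finger gene znf384a had the signs of the run, at -0.06, -0.51 and 0.01. Outside the run, cd74a, cd74b, mhc1zfa and psme2 also had these signs, while b2m and tap1 did not. The signs are thus not particular to this run. Neighbours were followed farther for tapbp.1 than for the other members, and the run was not among the planned lists. The share of all tested genes with these signs was not computed. In the fit over all libraries 0 of the 9 genes passed, with psmb9a at -0.36 ± 0.17 (limma adjusted p = 0.702) and tap2a at -0.48 ± 0.30 (limma adjusted p = 0.761). The gene tap1 lies elsewhere in that order, beside brd2b, and was higher with Galloflavin in each batch. Duplicates such as tapbp.1 and tapbp.2 may share reads.

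**Figure D4:**
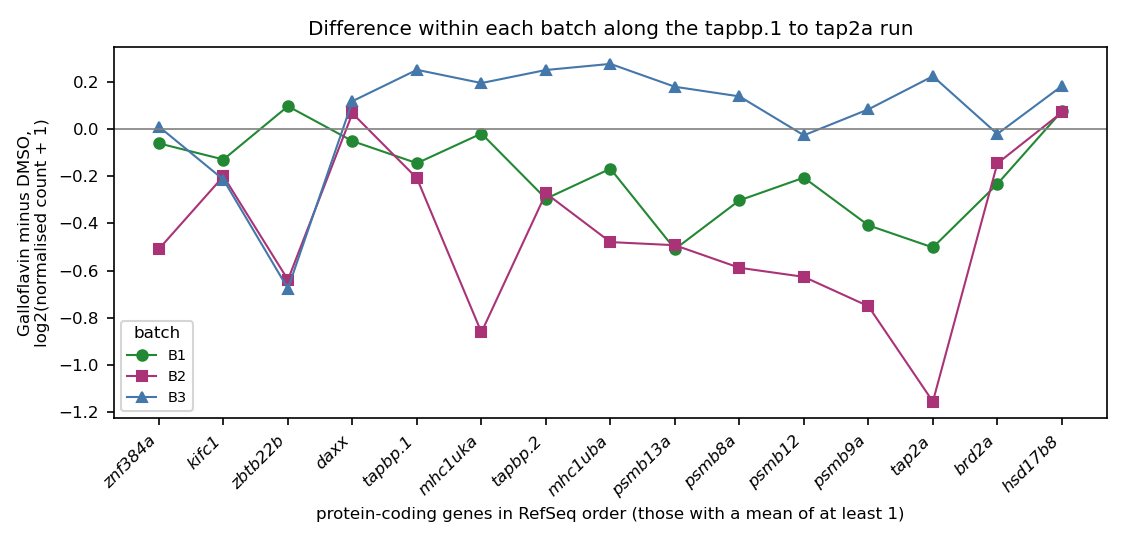
Galloflavin minus DMSO on log2(normalised count + 1) (y axis) within each batch (colours and symbols) for neighbouring genes in RefSeq order (x axis), including flanking genes on both sides. From tapbp.1 to tap2a, the B1 and B2 points lie below 0 and the B3 points above it, apart from psmb12 at -0.03.

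The immunoproteasome replaces standard proteasome subunits after interferon and makes peptides suited to class I. All 7 tested subunit genes had fitted values below 0, as did 8045 of all 15806 tested genes. Of the 7, psmb8a, psmb9a, psmb12 and psmb13a are the genes of the run above and no separate observation. The list had a median of -0.25, against -0.004 over all tested genes, and 0 passed. The batch medians were -0.30, -0.55 and 0.08. The activator genes psme1 and psme2 stood at -0.03 ± 0.13 and -0.16 ± 0.13, and the catalytic subunit genes psmb8a and psmb10 at -0.25 ± 0.15 and -0.16 ± 0.17. Of these, psmb8a had 55.0, 62.5 and 54.1 normalised counts in DMSO B1, B2 and B3 and 44.4, 41.3 and 59.6 with Galloflavin, so the groups overlapped through the B3 library.

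Most lysosomal genes of the class II route had fitted values above 0. Of 12 tested genes, 0 passed, and 10 were above 0, as were 7761 of all 15806 tested genes. The median was 0.15, with batch medians of -0.06, 0.24 and 0.20. Of the 12 genes, 2 were higher with Galloflavin in every batch, as were 2692 of all 15806 tested genes. The cathepsin gene ctsla had 502, 496 and 540 normalised counts in DMSO B1, B2 and B3 and 573, 585 and 627 with Galloflavin, without overlap (0.21 ± 0.09, limma adjusted p = 0.684). Such a separation, with Galloflavin above DMSO, held for 6.97% of tested genes. The other genes of the list with high mean counts were ctsba at 0.09 ± 0.09, the legumain gene lgmn at 0.22 ± 0.14 and ctsd at 0.15 ± 0.13. These proteases serve lysosomes in general. The thiol reductase gene ifi30, which opens disulphide bonds of antigens, was at 40.1 to 46.0 normalised counts in B1 and B2 and at 61.3 and 64.8 in B3, so that both B3 libraries were the highest, as for cd74a. In the list of class II and invariant chains, 6 of the 16 listed genes were in the table and 4 were tested. These were cd74a, cd74b, mhc2dab and mhc2dbb, a further beta chain gene at -0.00055 ± 0.20, and their median was -0.07. The list lacks mhc2dga (0.17 ± 0.23), mhc2dgb (0.12 ± 0.33), mhc2dhb (0.04 ± 0.29) and mhc2d4b (-0.29 ± 0.21). Its median therefore does not describe the class II chains as a whole.

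**Figure D5:**
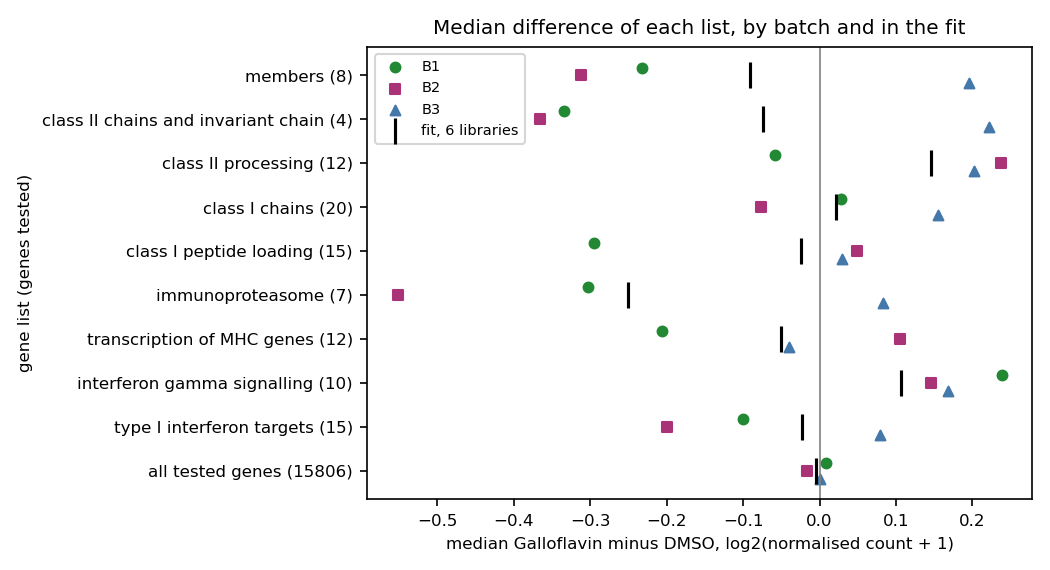
Median Galloflavin minus DMSO difference on log2(normalised count + 1) (x axis) for 8 gene lists of the pathway, the 8 members and all tested genes (y axis, number tested in brackets), within each batch (coloured symbols) and in the fit (black ticks). The immunoproteasome median is at -0.25 in the fit and at 0.08 in B3, and all tested genes lie near 0. The list of class II and invariant chains lacks mhc2dga, mhc2dgb, mhc2dhb and mhc2d4b.

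Profiles most like those of 3 members were sought as the smallest root mean square difference between log2 profiles centred over the 6 libraries, among genes with a mean of at least 5. For cd74a these were tapbp.2 (0.09), atp1b3a (0.11), si:ch211-188p14.4 (0.12), tapbp.1 (0.12) and icn2 (0.13). For b2m they included ddx41, septin7a, etfa and cep85, each at 0.02. Like b2m, each of these genes was lowest in DMSO B3 and highest in Galloflavin B3. They were picked for this likeness, and the differences between libraries were small. For mhc2dab the nearest was LOC100332396 at 1.22, with 5.83, 8.63 and 0 normalised counts in DMSO B1, B2 and B3 and 16.6, 11.4 and 15.9 with Galloflavin. The next were creb5a (1.44), nr1d2a (1.51), per2 (1.52) and si:dkey-201c13.2 (1.55), none of which was at 0 in a library.

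In the marker lists of cells that carry class II, 0 genes passed with limma between the groups. Summed macrophage markers were at 477 to 520 normalised counts with DMSO and 502 to 536 with Galloflavin, and 0 of 13 tested markers passed with limma. DESeq2 called mfap4.1 of this list (adjusted p = 0.0139, and 0.0237 with batch as a block) and, only with the block, mpeg1.2 (adjusted p = 0.00619). Within this list the scavenger receptor gene marco stood at 0.24 ± 0.11, csf1ra at -0.16 ± 0.16, mpeg1.1 at -0.23 ± 0.16 and cd68 at 0.18 ± 0.12. Dendritic cell markers summed to 85.9 to 97.9 with DMSO and 72.9 to 89.2 with Galloflavin, most of it from id2a (-0.24 ± 0.08), and flt3, batf3, xcr1a.1 and xcr1b.1 stayed below 1 in all libraries. Of the B cell markers, cd79b was at 0 in 5 of 6 libraries, and the list, which summed to 31.8 to 34.6 and 32.0 to 40.0, rested on syk, btk, blnk, cd22 and ebf1a. T and NK cell markers summed to 79.3, 79.5 and 108 in DMSO B1, B2 and B3 and to 63.7, 60.8 and 80.9 with Galloflavin, lower in each batch as nlrc5 and ciita were. In B1 the difference was mostly that of bcl11ba, from 37.8 to 22.5 normalised counts, while ccr9a, tox, tagapa, il2rb and zap70 were higher with Galloflavin there. In that list, bcl11ba was at -0.59 ± 0.13, cd4-1 at -0.71 ± 0.28, ccr9a at -0.10 ± 0.36 and tox at -0.07 ± 0.16, with limma adjusted p of 0.602 to 0.973 and 0 of 11 passing with limma. DESeq2 called bcl11ba (adjusted p = 0.0262, and 0.039 with batch as a block). The part of lymphocytes in the nlrc5 and ciita values was not tested. Summed neutrophil markers were at 71.9, 64.9 and 145 in DMSO B1, B2 and B3 and at 142, 129 and 96.8 with Galloflavin, higher in B1 and B2 and lower in B3. Summed epidermis markers, nearly all keratin, were at 97057, 105141 and 78878 in DMSO B1, B2 and B3. With Galloflavin they were at 80136, 101786 and 83760, lower in B1 and B2 and higher in B3. Of the 10 markers, 6 were higher with Galloflavin in every batch, as were 2692 of all 15806 tested genes. The other 4 had fitted values below 0 (median log2 fold change of the list 0.20). Summed blastema and fin markers were at 17300 to 19804 and 16051 to 20473. In these 3 lists 0 genes passed with limma. DESeq2 called the epithelial genes cldne and epcam (adjusted p = 0.00181 and 0.0321) and, only with batch as a block, scpp8 of the neutrophil list (adjusted p = 0.00357).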

How the data were processed

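mRNA-seq libraries of 3 DMSO and 3 Galloflavin pools were grouped by GEO's labels. Per the submitters' processing notes, the aligner was STAR 2.7.10a and the build GRCz11. Which counter, annotation, strand setting and scaling the authors used is not given in the sources used here. They deposited a signal, the normalised count of every gene in every library. Dividing a library by its lowest value above 0 gave whole reads (100% of values, tolerance 0.01 of a read). One read was worth 0.0338 to 0.0543.

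The test was limma 3.58.1 (R 4.3.3) on log2(value + 1), moderated with a mean trend, two-sided, with Benjamini-Hochberg adjustment at 0.05 over 15806 genes. Genes with blank symbols were named from a reference table (1485 of 2175). The limma test was checked on simulated data. Alternatives were batch as a block, other pseudocounts, filters and scalings, edgeR 4.0.16 and DESeq2 1.42.0 on the recovered reads, and each library and batch left out.

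The labels give the batch, which pairs the libraries. Deviations from group means had correlations of 0.102 (B1), 0.0765 (B2) and 0.49 (B3) in the same batch, with a highest value of 0.377 across batches. No library repeated another (chi-square per degree of freedom of 11.1 or more). The labels call the pools biological replicates.

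The members and lists were chosen with earlier results of these data known. The genes named are the 8 members, up to 4 genes of each list with the highest mean, and the 5 nearest profiles of mhc2dab, cd74a and b2m. One of these profiles is not reported here. Others are named as neighbours or by a stated pattern. Neither a GRCz11 genome nor a sequence table was used here.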

Additional observations from a re-analysis of the deposited data

How the results depend on the processing

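The count of genes called between Galloflavin and DMSO, 0 with limma, was 83 with DESeq2, 146 with DESeq2 and a replicate block, and 1 without batch B2. Among the 8 members, as among the genes of the pathway lists, it was 1 in each of these fits, nlrc5 with DESeq2 and mhc2dab without batch B2. The fit without batch B2 leaves out the only DMSO library with mhc2dab reads, so that call supports nothing further. The count was 0 in every other alternative run, including the replicate block with limma (0) and with edgeR, and with each library left out. The 5 genes called between batches became 1 with a pseudocount of 5 or median-of-ratios scaling, 8 with no filter, and 0 with a minimum mean of 5 or edgeR. With single libraries left out the count ran from 0 to 301 (301 when DMSO B1 was left out, 214 for Galloflavin B1, 51 for DMSO B2, and 0 for Galloflavin B2 and for either B3 library), and no member was called in any of these fits. The cause was not tested.

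Of 160 fold changes of members under the alternatives, 10 changed sign, for genes whose fitted value was near 0. These were b2m with quantile normalization (-0.037), and tapbp.1 with edgeR (0.016), DESeq2 (0.021), without batch B1 (0.0205) and without batch B2 (0.0524). With single libraries left out, tapbp.1 ran from -0.37 to 0.16, cd74a from -0.55 to 0.0593 and cd74b from -0.42 to 0.0523, with the positive values of both cd74 genes without Galloflavin B2. Of 180 list medians, 5 moved by more than the spread between batches, 4 of them for interferon gamma signalling (0.16 to 0.19) and 1 for the members (-0.39 without Galloflavin B3). With 3 pools per group, single-gene differences of this size were not called by limma or edgeR.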

Other observations

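Another gene of the interferon system also had libraries at 0 reads. The antiviral gene mxb had 89 and 66 reads in DMSO B1 and Galloflavin B1, 12 and 3 in DMSO B2 and Galloflavin B2, and 0 in both B3 libraries, so that here the zeros were in both libraries of 1 batch (limma adjusted p = 0.115 for batch). Its paralog mxc was highest in both B3 libraries, with 6.95, 15.0, 9.65 and 8.27 normalised counts in DMSO B1, Galloflavin B1, DMSO B2 and Galloflavin B2 and 21.3 and 25.4 in DMSO B3 and Galloflavin B3. A further paralog, mxa, had mean normalised counts of 24.1, 16.5 and 14.4 in B1, B2 and B3. Whether reads are split between these paralogs was not tested. The macrophage genes c1qa, c1qb and mfap4.1, picked after their values were seen, had log2 fold changes of -0.79 ± 0.22, -0.56 ± 0.17 and 0.95 ± 0.21 and were not called by limma (adjusted p = 0.602 each). DESeq2 called mfap4.1 (adjusted p = 0.0139).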
